A study of Equus caballus with 10 samples.

Results

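BMP, GDF and activin signalling was followed through 10 genes in equine tenocytes, the resident cells of tendon, after 14 days of 3D culture in collagen gels. The genes encode the ligands BMP2, BMP4, BMP6, GDF5, GDF6 and INHBA, the extracellular antagonists FST, GREM1 and NOG, and the target gene ID1. They were chosen by name and not by a rule on their measured values, though with earlier results of these data known. All 10 of 10 were found among the 29196 genes of the deposited table. The study compared tenocytes from the superficial digital flexor tendon of 5 horses, of Thoroughbred or similar type and of different ages, called donors 1 to 5, to ask how far the inhibitor changes the response to IL-1β. Each donor gave 1 library to each of 2 groups. The first group received PF-06650833 at 100 nM every day, which blocks IRAK-4, a kinase that acts below the IL-1 receptor. The second group received the same inhibitor together with the inflammatory cytokine IL-1β at 17 ng/ml every 3 to 4 days. Since PF-06650833 was present in both groups, the comparison gives the effect of IL-1β on cells that all carried the inhibitor, and cells without it were not analysed here. The cells were primary cultures that had been passaged before use.

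BMPs, GDFs and activins are secreted dimers of the TGF-β superfamily that bind pairs of type I and type II serine/threonine kinase receptors. BMPs and some GDFs, such as GDF5 and GDF6, lead to phosphorylation of SMAD1, SMAD5 and SMAD9, and activins to that of SMAD2 and SMAD3. Secreted antagonists bind the ligands before they reach a receptor. GDF5 and GDF6 are known for their part in joint and tendon development, and the ID genes are among the most direct targets of BMP receptors.

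Values are log2 expression after variance stabilization, a scale on which 0 reads correspond to 3.433 and differences between low values are compressed. Levels are not given per transcript length, so they are compared between libraries and not between genes. The reads per library, estimated from the values, numbered from 26672336 to 36093461 in the group without IL-1β and from 26963764 to 33464155 in the group with it. Of the 8 marker genes of tenocytes and fibroblasts that were looked up, 7 were in the table and 6 were tested. SCX and MKX fell with IL-1β (log2 fold changes -3.24 and -2.85), and TNMD, a marker of mature tenocytes, was at 0 reads in all 10 libraries. COL1A1 and COL1A2 had log2 fold changes of -1.38 and -1.28, with adjusted p-values of 0.0682 and 0.0614 from limma and of 0.0147 and 0.0169 with the donor as a block. DCN had a log2 fold change of 1.005, higher in 5 of 5 donors, with an adjusted p of 0.268 from limma and of 0.0529 with the block, and THBS4 one of -1.22, with adjusted p-values of 0.437 and 0.0605. Without the IL-1β plus PF-06650833 library of donor 4, or without donor 4, THBS4 was differentially expressed (adjusted p = 0.0384 and 0.0419 from limma). The summed normalized counts of this list were 815500 to 1359000 without IL-1β and 230800 to 966500 with it. Of the epithelial markers, 1 of 3 tested fell, CDH1 (log2 fold change -2.22, limma adjusted p = 0.0136, and 0.066 and 0.0692 without donor 1 and without donor 5). With the donor as a block, CDH1 kept its call without any 1 donor (limma adjusted p at most 0.0138). None of the tested leukocyte, endothelial or chondrocyte markers (1, 4 and 2 genes) was differentially expressed. The part of these differences in the results that follow was not tested. The pan-leukocyte gene PTPRC had at most 3 estimated reads and the endothelial genes at most 36. CD163 and CSF1R, genes of monocytes and macrophages on the leukocyte list, had at most 5 and 1 estimated reads. The monocyte gene CD14, the 1 leukocyte marker that was tested, had 0 to 1458 estimated reads without IL-1β and 0 to 1374 in its presence. It was higher in 4 donors and lower in 0, with a log2 fold change of 2.66 (95% confidence interval -1.13 to 6.45, adjusted p = 0.34 from limma). The chondrocyte gene COL9A1, the T cell gene CD3E and the epithelial gene EPCAM had 0 reads in all libraries. In such bulk libraries, fewer cells of a type and less RNA per cell cannot be told apart.

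Among the 9 tested genes, the largest difference was in an antagonist, and the only one without overlap of the groups was in a target. GREM1 fell 4.41-fold when IL-1β was present, with a decrease in all 5 donors. On the variance-stabilized scale, which compresses differences between low values, GDF6 fell 2.61-fold, also in all 5 donors, from low levels. ID1 was 1.99-fold higher in all 5 donors, just short of the minimum fold change. For BMP2, BMP6, INHBA, FST and NOG the donors did not share 1 direction, and GDF5 was close to 0 reads.

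Differential expression was taken at the study's thresholds, a log2 fold change of 1 or more in size and an adjusted p under 0.05. The study applied them to DESeq2 results. Here they were applied to limma on variance-stabilized values, with Benjamini-Hochberg adjustment over all 17992 tested genes. Differences between low values are compressed on this scale, so the minimum fold change is not equivalent to that of the study. Of the 10 genes, 9 passed the filter on low values and were tested. Differential expression was found for 2 of them, both lower when IL-1β was added. Among all tested genes 6.68% were differentially expressed, 3.11% higher and 3.57% lower. With the donor as a replicate block the number was again 2, against 8.26% of all tested genes. With the adjusted p alone, 3 of the 9 passed, against 15.5% of all tested genes, and 4 of the 9 with the replicate block, against 22.2%. The median log2 fold change of the 9 genes was 0.45 and that of all tested genes was -0.01. The median of the absolute log2 fold changes was 0.87 for the 9 genes and 0.25 for all tested genes. The groups did not overlap for 1 of the 9 genes, ID1, against 12.7% of all tested genes. The 9 genes are few, and no test was made of their counts against these background shares.

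**Figure D1:**
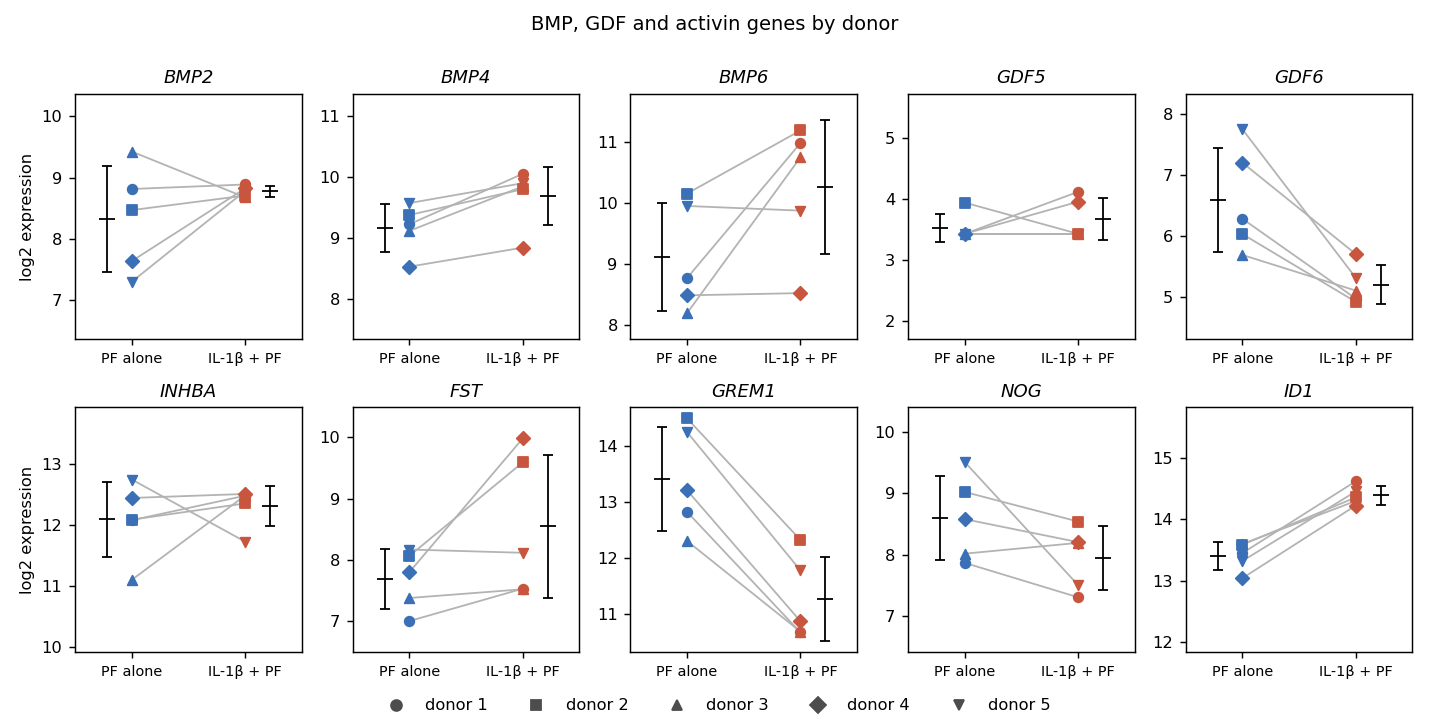
Log2 expression of the 10 genes in each library, with PF-06650833 alone in blue and IL-1β plus PF-06650833 in red. Grey lines join the 2 libraries of a donor, symbols mark the donor, and black bars give the mean and SD of 5 libraries. All 5 lines fall for GREM1 and GDF6 and rise for ID1 and BMP4, while those of BMP2 and INHBA cross.

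Among the ligands, BMP2 had a mean of 8.33 ± 0.87 (SD, n = 5) without IL-1β and of 8.78 ± 0.09 (SD, n = 5) in its presence. BMP2 is a strong inducer of bone and cartilage formation. In donors 1 to 5 its values were 8.81, 8.47, 9.43, 7.64 and 7.30 with PF-06650833 alone and 8.89, 8.71, 8.68, 8.82 and 8.78 with IL-1β. The first group was spread widely and the second lay within a narrow band inside that spread, so that BMP2 was higher in 4 donors and lower in donor 3. The log2 fold change was 0.45 (95% confidence interval -0.31 to 1.20, adjusted p = 0.431 from limma), and no difference of the means was detected.

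BMP4, a close relative of BMP2, was at 9.23, 9.38, 9.12, 8.53 and 9.57 in donors 1 to 5 with PF-06650833 alone, and at 10.05, 9.80, 9.84, 8.84 and 9.90 with IL-1β. Donor 4 was the lowest of both groups, and BMP4 was higher with IL-1β in all 5 donors although the groups overlapped. The log2 fold change of 0.52 had an adjusted p of 0.187 from limma without a donor term and of 0.0165 with the replicate block. In either fit it was below the minimum fold change. When a donor was left out, the adjusted p with the replicate block ranged from 0.0187 to 0.0689, the highest without donor 1.

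BMP6, best known as a regulator of iron balance and of bone, was at 8.77, 10.15, 8.20, 8.49 and 9.95 with PF-06650833 alone and at 10.98, 11.18, 10.74, 8.53 and 9.87 with IL-1β. Donors 1, 2 and 3 were higher with IL-1β by 2.20, 1.03 and 2.55 on the log2 scale, and in donors 4 and 5 the libraries differed by 0.04 and -0.08. Its log2 fold change of 1.15 was above the minimum, but the adjusted p was 0.179 from limma and 0.0753 with the replicate block. Without the IL-1β plus PF-06650833 library of donor 4, BMP6 was differentially expressed, with a log2 fold change of 1.58 and an adjusted p of 0.0296 from limma. With the replicate block it passed in 2 of 5 fits without 1 donor, with limma adjusted p-values of 0.0461 and 0.0485, and not in the other 3.

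GDF5 had 1 estimated read in 1 library with PF-06650833 alone and 2 and 1 reads in 2 libraries with IL-1β, and 0 reads in the other libraries. These numbers are below 3 reads, the limit that a count of 0 allows in a library. GDF5 was above 0 reads in 3 libraries, fewer than the 5 that the filter required, and was not tested. GDF6, whose product acts in joint and tendon formation like that of GDF5, was at 6.28, 6.03, 5.69, 7.20 and 7.74 in donors 1 to 5 with PF-06650833 alone and at 4.97, 4.92, 5.11, 5.70 and 5.31 with IL-1β. Each donor was lower with IL-1β, and the groups met only at the edge, where donor 4 with IL-1β and donor 3 without it had 5.70 and 5.69. GDF6 fell by 1.38 on the log2 scale (standard error 0.38, limma adjusted p = 0.0298). The estimated reads were 25 to 186 per library without IL-1β and 11 to 23 in its presence, and on the scale of log2(normalized count + 1) the log2 fold change was -1.96. The call was lost in 9 of the 15 fits made without 1 library or 1 donor, with adjusted p-values of 0.0531 to 0.103. These were the fits without the PF-06650833 alone library of donor 4 or 5, without the IL-1β plus PF-06650833 library of donor 1, 2 or 5, and without donor 1, 2, 4 or 5. With the replicate block the call held without any 1 donor, with an adjusted p of at most 0.0408.

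INHBA, which encodes the subunit of activin A, was at 12.07, 12.08, 11.10, 12.44 and 12.74 with PF-06650833 alone and at 12.47, 12.35, 12.48, 12.50 and 11.72 with IL-1β. Donor 3 was the lowest without IL-1β and donor 5 the lowest with it, and donor 5 alone had a lower value with IL-1β. The log2 fold change was 0.22 (95% confidence interval -0.38 to 0.82, adjusted p = 0.653 from limma), and without the PF-06650833 alone library of donor 3 it was -0.03.

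Of the 23 other ligand genes of the family that were listed, 21 were in the table and 8 were tested, and 1 was differentially expressed, against the 6.68% of all tested genes. This was INHBE, which encodes the activin βE subunit and is otherwise known from liver. INHBE was at 9.54, 8.57, 10.71, 10.74 and 9.70 in donors 1 to 5 with PF-06650833 alone and at 4.77, 5.20, 6.69, 6.77 and 5.45 with IL-1β. The groups lay far apart, with 272 to 1554 estimated reads against 8 to 72. On the variance-stabilized scale INHBE fell by 4.08 (standard error 0.50, limma adjusted p = 5.84e-04), which is 16.9-fold on that scale. On the scale of log2(normalized count + 1) its log2 fold change was -4.76. INHBE stayed differentially expressed in each of the 15 fits made without 1 library or 1 donor. Its close relative INHBC had 3, 0, 3, 6 and 2 estimated reads with PF-06650833 alone and 0 in all 5 libraries with IL-1β, and was not tested.

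GDF11 lay between 9.19 and 9.40 in the first group and between 10.04 and 10.28 in the second, with no overlap. Its log2 fold change of 0.80 (standard error 0.09, limma adjusted p = 3.95e-04) was below the minimum of 1. INHBB, the subunit of activin B, had a log2 fold change of 0.05 (95% confidence interval -1.14 to 1.25, adjusted p = 0.962 from limma). BMP7 had 0 reads in all 5 libraries with PF-06650833 alone, and 1, 1, 2, 0 and 32 estimated reads in donors 1 to 5 with IL-1β, so that its reads came almost entirely from donor 5.

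Among the antagonists GREM1, NOG and FST, the difference was largest for GREM1. It encodes gremlin 1, a secreted protein that binds BMP2 and BMP4. Its values in donors 1 to 5 were 12.82, 14.48, 12.30, 13.21 and 14.24 with PF-06650833 alone and 10.68, 12.32, 10.69, 10.88 and 11.78 with IL-1β. Within donors the value decreased by 1.61 to 2.46 on the log2 scale. The groups overlapped by the smallest margin, since donor 2 with IL-1β was at 12.32 and donor 3 without it at 12.30. The group mean was 13.41 ± 0.93 (SD, n = 5) without IL-1β and 11.27 ± 0.74 (SD, n = 5) in its presence. It changed by a log2 fold of -2.14 (standard error 0.46, limma adjusted p = 0.00987). With the replicate block the standard error was 0.13 and the adjusted p was 1.55e-04. The change was larger in size than that of 98% of all tested genes, and GREM1 was differentially expressed in each of the 15 fits made without 1 library or 1 donor.

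By Pearson correlation over the 10 libraries, the genes with a symbol whose log2 values were most like those of GREM1 were IRX5 (r = 0.977), SCG5 (r = 0.977) and DES (r = 0.976). The 10 libraries fall into the 2 groups and pair by donor, so both differences enter these coefficients, which are given as a description. SCG5 fell by 1.99 on the log2 scale (limma adjusted p = 0.0103) and is the protein-coding gene next to GREM1 in the RefSeq order of another horse assembly. FMN1, on the other side of GREM1 in that order, had a log2 fold change of -0.78 (adjusted p = 0.0149 from limma). Of the 15 tested genes that flank the 10 genes in that order, 2 were differentially expressed, against the 6.68% of all tested genes, SCG5 and GLI3 beside INHBA (log2 fold change -1.19). GLI3 lost its call in 8 of 15 fits, without the PF-06650833 alone library of donor 4 or 5, the IL-1β plus PF-06650833 library of donor 1, 2 or 5, or donor 1, 2 or 5 as a whole. With the replicate block it kept the call in 4 of 5 fits without 1 donor, and in the other its log2 fold change was -0.97. The flanking genes were looked up after the values had been seen.

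DES, the gene of the muscle intermediate filament desmin, was also on the list of 5 muscle and pericyte markers. Of the 4 that were tested, DES, RGS5 and CSPG4 fell with IL-1β, with log2 fold changes of -2.98, -1.96 and -1.84 (adjusted p = 0.00546, 0.0106 and 0.00212 from limma). Without the donor term RGS5 lost its call without donor 1, 2 or 5, with adjusted p-values of 0.054 to 0.066. With the replicate block it kept the call in 4 of 5 fits without 1 donor, and in the other the limma adjusted p was 0.0501. MYH11 did not pass (log2 fold change -0.56, adjusted p = 0.678 from limma) and MYOD1 was at 0 reads in all libraries. The summed normalized counts of the list were 3458 to 36530 without IL-1β and 4137 to 12880 in its presence. The part of such cells in the decrease of GREM1 was not tested.

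NOG, the gene of the BMP antagonist noggin, was at 7.86, 9.02, 8.02, 8.58 and 9.51 with PF-06650833 alone and at 7.30, 8.54, 8.19, 8.20 and 7.50 with IL-1β. It was lower with IL-1β in 4 donors and slightly higher in donor 3, and donor 5 had a difference of -2.01 against -0.56 to 0.18 in the others. The log2 fold change was -0.65 (95% confidence interval -1.41 to 0.11, adjusted p = 0.235 from limma).

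FST encodes follistatin, which binds activins and some BMPs. It was at 7.00, 8.06, 7.38, 7.80 and 8.17 with PF-06650833 alone and at 7.53, 9.59, 7.52, 9.99 and 8.11 with IL-1β. Donors 2 and 4 were higher with IL-1β by 1.53 and 2.19 on the log2 scale, and the other 3 donors differed by -0.05 to 0.53. The log2 fold change was 0.87 (95% confidence interval -0.21 to 1.95), with an adjusted p of 0.27 from limma and of 0.0972 with the replicate block.

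Of 15 other extracellular antagonists and modulators listed, 14 were in the table and 12 were tested. CHRD, the gene of the BMP antagonist chordin, fell from 7.48 ± 0.41 (SD, n = 5) to 5.84 ± 0.56 (SD, n = 5). This is a log2 fold change of -1.64 (standard error 0.30, limma adjusted p = 0.00482), and all 5 libraries with IL-1β lay below all 5 without it. CHRDL1, which encodes a chordin-like antagonist, had a log2 fold change of -1.75 and was lower with IL-1β in 5 of 5 donors. It was not differentially expressed without a donor term (adjusted p = 0.07 from limma) and was with the replicate block (adjusted p = 0.0188). Without the PF-06650833 alone library of donor 3, without the IL-1β plus PF-06650833 library of donor 2, or without donor 3, CHRDL1 passed also without the donor term, with adjusted p-values of 0.017 to 0.0418. FSTL1 (log2 fold change -0.46, adjusted p = 0.0723 from limma) and TWSG1 (-0.12, adjusted p = 0.411), named for their mean log2 values, were not differentially expressed.

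**Figure D2:**
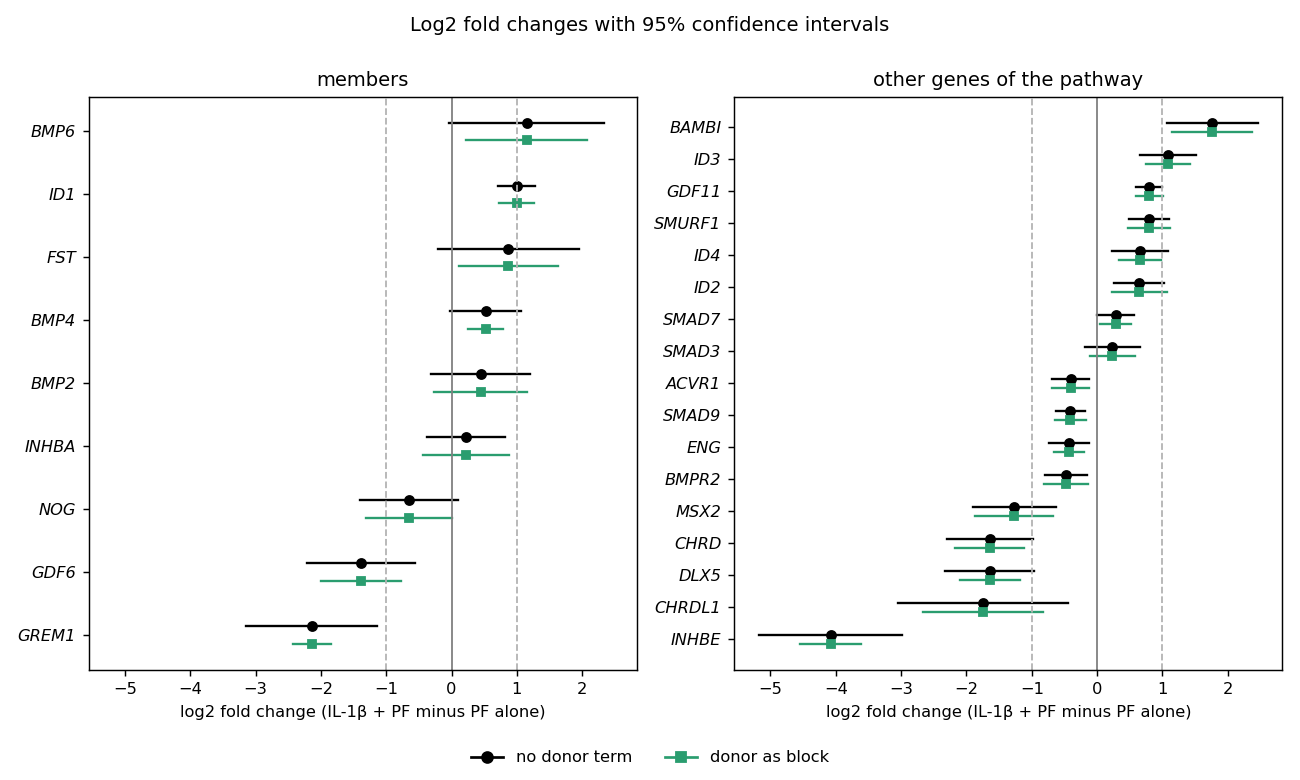
Log2 fold changes between IL-1β plus PF-06650833 and PF-06650833 alone, with 95% confidence intervals, for the 9 tested members (left) and 17 other genes of the pathway (right). Black circles are from the fit without a donor term and green squares from the fit with the donor as a block. Dashed lines mark a log2 fold change of 1 in either direction. The intervals of GREM1 lie wholly below -1 in both fits, and the largest decrease drawn is that of INHBE at -4.08.

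Of 13 receptor and co-receptor genes listed, 12 were in the table and were tested. None of the 12 tested receptor and co-receptor genes was differentially expressed by limma, with or without the replicate block (0 in both fits), while 5 had an unadjusted p below 0.05 without the block and 6 with it. Among all 17992 tested genes 5348 and 6506 had such a p. BMPR2, the type II receptor for BMPs, passed the adjusted p alone, with a log2 fold change of -0.48 (standard error 0.15, limma adjusted p = 0.0468) that was not kept with the replicate block (adjusted p = 0.0509). The BMP type I receptor ACVR1 (log2 fold change -0.41) and the co-receptor ENG (-0.43), named for their mean log2 values, had adjusted p-values of 0.0576 and 0.058 from limma, and of 0.0492 and 0.0175 with the replicate block. ACVR1C, a type I receptor for activins and related ligands, had 0 reads in all 5 libraries with PF-06650833 alone and 1 to 5 estimated reads in each library with IL-1β. It met the filter on low values only through the second group, so its presence in the counts of receptors is no evidence of a difference, and neither a p nor a fold is given.

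Inside the cell, 1 of 15 tested genes of SMADs and inhibitors was differentially expressed, against the 6.68% of all tested genes, which is about 1 gene in 15. BAMBI, which encodes a membrane pseudoreceptor without a kinase domain that dampens TGF-β family signals, was at 6.53, 6.84, 6.58, 7.65 and 7.29 in donors 1 to 5 with PF-06650833 alone. With IL-1β it was at 8.77, 9.36, 7.92, 8.36 and 9.28, above all libraries of the first group. BAMBI rose by 1.76 on the log2 scale (standard error 0.32, limma adjusted p = 0.00438). The adjusted p alone was passed by 3 further genes, 4 of the 15 in all, against the 15.5% of all tested genes. These were SMURF1, a ubiquitin ligase for SMAD1 and SMAD5, with a log2 fold change of 0.79 (adjusted p = 0.00387 from limma), TOB1 with 0.31 (adjusted p = 0.0468) and SMAD9 with -0.41 (adjusted p = 0.019). SMAD1, SMAD5, SMAD2, SMAD3 and SMAD4 did not pass in either fit, and the log2 fold change of SMAD3 was 0.24 (adjusted p = 0.451 from limma). The inhibitory SMAD7 had a log2 fold change of 0.28 (adjusted p = 0.164 from limma), and SKI, a SMAD corepressor, of -0.42 (adjusted p = 0.188 from limma, and 0.0281 with the replicate block).

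ID1 was the target gene among the 10. ID proteins bind helix-loop-helix transcription factors and keep them from DNA. ID1 was at 13.45, 13.59, 13.60, 13.04 and 13.32 in donors 1 to 5 with PF-06650833 alone and at 14.63, 14.36, 14.30, 14.23 and 14.46 with IL-1β. Every library with IL-1β was above every library without it, and the differences within donors were 0.70 to 1.19. The log2 fold change was 0.99 (standard error 0.13, 95% confidence interval 0.71 to 1.28, adjusted p = 8.77e-04 from limma), so ID1 passed the adjusted p and missed the minimum fold change. In 8 of the 15 fits made without 1 library or 1 donor it reached the minimum, with log2 fold changes of 1.00 to 1.07, as it did after centring each library on its median (1.02) and with array weights (1.04). Those 8 fits left out the PF-06650833 alone library of donor 1, 2 or 3, the IL-1β plus PF-06650833 library of donor 2, 3 or 4, or donor 2 or 3.

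Of 13 other BMP target genes tested, 4 were differentially expressed, 2 higher and 2 lower, against the 6.68% of all tested genes. The list shares SMAD6, SMAD7 and BAMBI with that of the SMADs and inhibitors, and BAMBI is 1 of the 2 that rose. The other was ID3, at 14.48, 14.82, 14.44, 13.75 and 14.44 with PF-06650833 alone and 15.75, 15.45, 15.32, 15.24 and 15.57 with IL-1β, again without overlap. Its log2 fold change was 1.08 (standard error 0.19, limma adjusted p = 0.00437). It was below the minimum, at 0.92 and 0.98, without the PF-06650833 alone library of donor 4 and without donor 4. ID2 (log2 fold change 0.64, adjusted p = 0.0308 from limma) and ID4 (0.65, adjusted p = 0.0417) were higher in 5 of 5 donors and passed the adjusted p alone, so that all 4 ID genes were higher with IL-1β in every donor. HEY1, another early target, had a log2 fold change of 0.73, with an adjusted p of 0.126 from limma and of 0.0124 with the replicate block.

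The 2 genes of this list that fell encode homeobox factors of skeletal development. DLX5 was at 9.59, 9.49, 9.32, 10.10 and 9.75 with PF-06650833 alone and at 8.04, 7.15, 7.93, 9.14 and 7.77 with IL-1β. All libraries with IL-1β were below those without it, and the log2 fold change was -1.64 (standard error 0.31, limma adjusted p = 0.00534). MSX2 lay between 11.76 and 12.07 without IL-1β and between 9.66 and 11.37 in its presence, with a log2 fold change of -1.27 (adjusted p = 0.0141 from limma). Without the donor term MSX2 lost its call without donor 1 (adjusted p = 0.0589) and without donor 5 (adjusted p = 0.074). With the replicate block it kept the call without any 1 donor (limma adjusted p at most 0.0465). RUNX2, a central factor of bone formation, had a log2 fold change of -0.62 (adjusted p = 0.234 from limma), and SP7, another such factor, of -0.04 (adjusted p = 0.938). The direction thus differed between genes of this list, with the ID genes and BAMBI higher and DLX5 and MSX2 lower. Genes named here for the adjusted p alone were, apart from GDF11 and ID2, named after their values had been seen, as were ACVR1C, INHBC, BMP7, HEY1, RUNX2, SP7, RGS5, CSPG4 and MYH11.

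**Figure D3:**
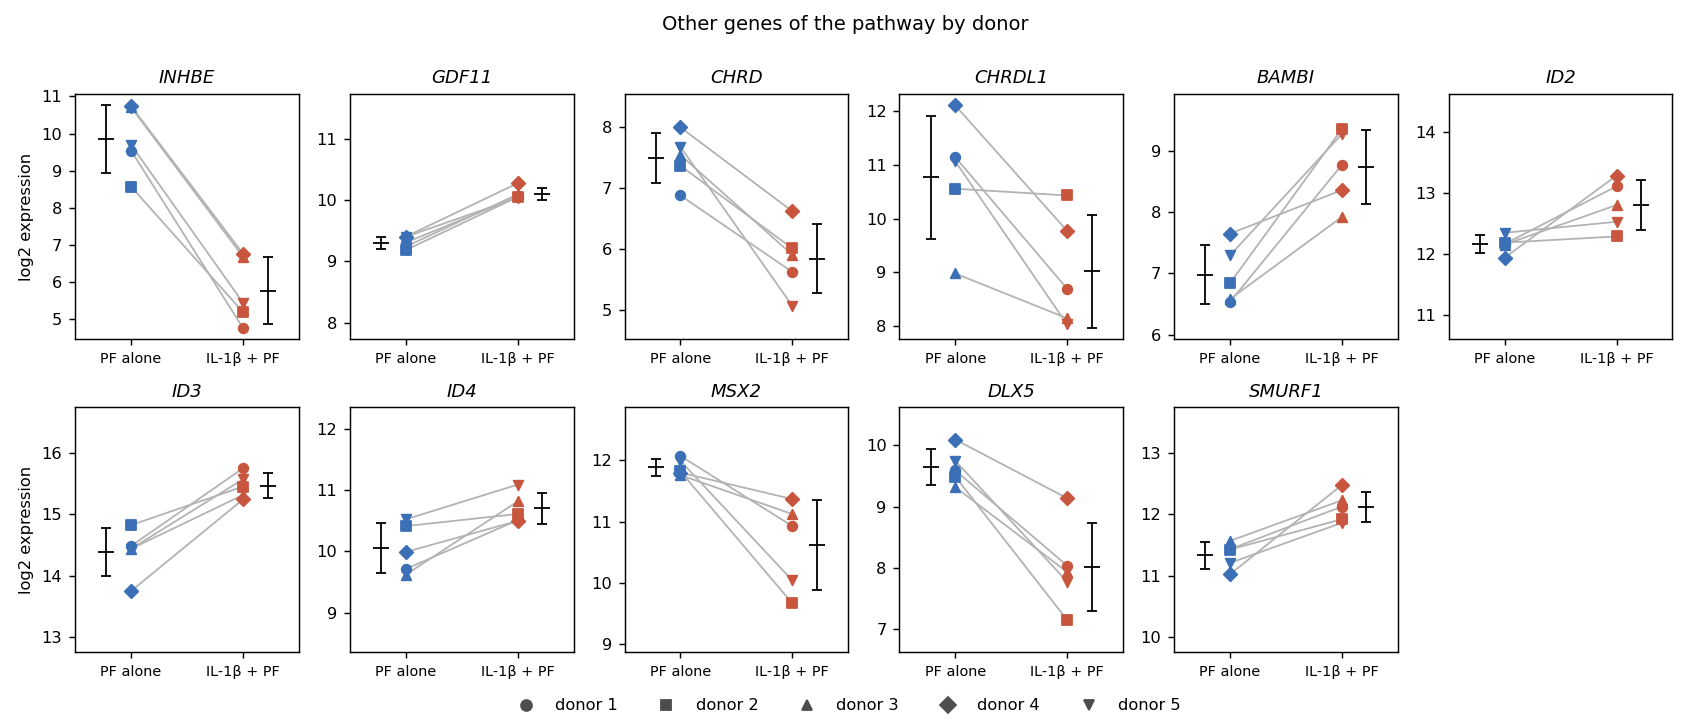
Log2 expression of 11 other genes of the pathway in each library, drawn as for the members, with grey lines joining the libraries of a donor and black bars giving the mean and SD of 5 libraries. INHBE, CHRD, DLX5 and MSX2 fall and BAMBI, GDF11, SMURF1 and ID3 rise without overlap of the groups, and the lines of CHRDL1 all fall while its groups overlap.

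The donors contributed unequally to the spread of the 9 tested genes. The treatment accounted for 88.9% of the variance of ID1 over the 10 libraries and the donor for 7.0%. For GREM1 the treatment accounted for 66.9% and the donor for 31.9%, which left 1.2%, so that the donors kept their distances while all of them fell. BMP4 had the largest donor share, with 64.3% against 30.6% for the treatment. For INHBA 70.3% of the variance lay in neither, and for BMP2 45.9%, the largest such shares among the 9 tested genes. These shares describe the libraries and carry no test.

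**Figure D4:**
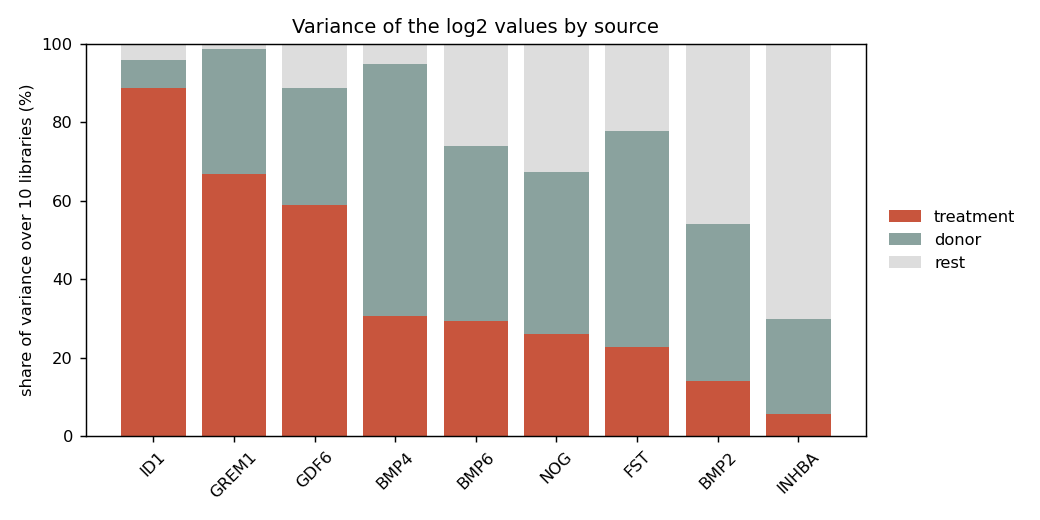
Share of the variance of the log2 values over 10 libraries, in percent, that lay between the treatments, between the donors and in the rest, for the 9 tested genes in the order of the treatment share. The treatment share runs from 88.9% for ID1 to 5.8% for INHBA.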

How the data were processed

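RNA from 3D tenocyte cultures of 5 donors was sequenced in 10 libraries, 5 per group. The authors quantified reads with Salmon (version 1.8) on the EquCab3.0 transcriptome with GC-bias correction, imported them with tximport and worked with DESeq2 (version 1.36). The deposited values are log2 expression. Their transformation is not given in the sources used here, and variance stabilization was recognised from the values, since all libraries share a lowest value of 3.433. All columns of values were used.

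The 17992 genes that exceeded it in 5 or more of the 10 libraries entered a limma fit (limma 3.58.1 in R 4.3.3). The prior variance followed the mean, the main model had no term for the donor, and a further model had the donor as a replicate block. The titles name the donor, and deviations from the group means correlated between libraries of the same donor (0.367 to 0.506 over 5 pairs, mean -0.107 between different donors). Alternatives were other normalizations, filters, pseudocounts, thresholds and variance models, and fits without each library or donor. All adjusted p-values are from limma over all tested genes. The fit was tested on simulated data. Normalized counts were obtained by inverting the transformation, and dividing them by the spacing of the lowest values gave estimated reads, which are approximate. Between 64.3% and 83.3% of the values under 6 reads lay within 0.15 of a whole read.

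The 10 genes, the lists of other pathway genes and the markers were chosen with earlier results of these data known. Named are the 10 genes, the list genes called in either fit, the 2 others of each list with the highest mean, and the 3 genes most like the called gene with the largest decrease. No called gene among the 10 was higher, so none was matched for an increase. All 10 symbols are in a RefSeq table of another assembly, used for names and gene order only, so positions are not given, and sequences were not analysed here. A gene of the antagonist list is not reported here.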

Additional observations from a re-analysis of the deposited data

Results flagged for a closer look

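Among 105 groups of 5 libraries of the named genes, 11 had 1 library far from the other 4 by Dixon's criterion, where chance gives about 5.25 (1 in 20). That rate is for independent groups of normally distributed values. The same donors recur across these genes, and GDF5 and CD14 had libraries at 0 reads, so the comparison is not a test. With IL-1β plus PF-06650833, donor 4 stood apart in 3 pathway genes, with BMP4 at 8.84 against 9.80 to 10.05 in the others, INHBB at 6.19 against 8.50 to 9.24 and GDF11 at 10.28 against 10.04 to 10.10. In the same group donor 5 had INHBA at 11.72 against 12.35 to 12.50. In the group without IL-1β, the FSTL1 value of donor 3 was 14.51 against 15.06 to 15.21, and donor 2 had GDF5 at 3.94, which is 1 estimated read against 0 in the other 4 libraries of the group. Donor 4 also had the lowest BMP4 and INHBB values with PF-06650833 alone, at 8.53 and 7.25. Also without IL-1β, donor 3 had HEY1 at 8.50 against 9.55 to 9.90, and donor 4 had the epithelial marker CDH1 at 10.64 against 9.11 to 9.47. With IL-1β, 3 cell markers had such a library, with DCN at 15.10 in donor 5 against 16.69 to 17.33, THBS4 at 9.17 in donor 4 against 4.24 to 5.35, and CD14 at 3.43, or 0 reads, in donor 3 against 8.75 to 10.73. The cause of these values was not tested.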

How the results depend on the processing

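Of 52 named tested genes, 49 kept their direction under all 34 alternatives, and the exceptions, INHBA, INHBB and SP7, were not differentially expressed. When a library or a donor was left out their log2 fold changes ranged from -0.0709 to 0.53, from -0.20 to 0.59 and from -0.205 to 0.104, and with array weights that of SP7 was 0.0407. In those 15 fits the members differentially expressed numbered 1 to 4 and all genes differentially expressed 762 to 1422, and up to 1677 with the replicate block and a donor left out, which was chosen after the data were seen. Without a minimum fold change there were 2782 genes in all (1362 higher, 1420 lower), 2 other ligands, 2 receptors and 4 SMADs and inhibitors. At an adjusted p below 0.01 there were 719 genes (345 higher, 374 lower) and 1 member. With log2(normalized count + 1) or + 0.5 there was 1 receptor. When the replicate block was used without a minimum fold change, 3996 genes passed, 4 members, 2 other ligands, 3 receptors, 4 antagonists, 5 SMADs and inhibitors and 7 targets, and with the replicate block on log2(normalized count + 1) there were 1809 genes and 1 receptor. By itself the replicate block gave 1486 genes and changed the calls of CHRDL1, COL1A1 and COL1A2 and of no other named gene. Other alternatives also called these 3 genes. Of the 14 alternatives that kept all libraries, CHRDL1 passed in 4, COL1A1 in 7 and COL1A2 in 8. Without a library or a donor and without the donor term, COL1A1 and COL1A2 each passed in 2 of 15 fits. The cause of these changes was not tested, apart from the looser or stricter thresholds. Genes with few reads, such as GDF5, INHBC and ACVR1C, are limited by depth, and ACVR1C, which is among the receptors counted, met the filter through 1 group only and gave no value where reads were required in all 10 libraries.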

Other observations

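BMP2 differed between the groups in its spread more than in its mean. The SD over donors with IL-1β plus PF-06650833 was 0.0988 of that with PF-06650833 alone, and 0.0667% of all tested genes had a lower ratio, where the median ratio was 1.11. All 5 libraries with IL-1β lay between 8.68 and 8.89, from values of 7.30 to 9.43 without it, so donors 4 and 5, the lowest without IL-1β, had the largest increases and donor 3, the highest, had a decrease. GDF6 had a ratio of 0.371, and FST the highest among the tested members, at 2.39. These ratios rest on 5 libraries a group and were looked at after the values had been seen, and no test was made of them.

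BMP6 and FST split the donors in different ways. BMP6 was higher with IL-1β by more than 1 on the log2 scale in donors 1, 2 and 3 and FST in donors 2 and 4, and donor 5 was the one donor with a negative difference in either gene, at -0.08 and -0.05. In the same donor NOG, GREM1 and GDF6 had their largest decreases, at -2.01, -2.46 and -2.43, and INHBA its only one, at -1.02. Other genes went up in donor 5, with the largest increase of BMP2, at 1.48, and with ID1 and BMP4 higher by 1.14 and 0.32. These donor patterns were looked at after the values had been seen, and no test was made of them.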
